A study of Mus musculus with 6 samples.

Results

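The 10 genes described here are Ttr, Gc, Rbp4, Apob, Apoa1, Lgals4, Tspan8, Anxa10, Cyp3a13 and Prlh. Most are genes of liver or digestive epithelium, and all were measured in sorted mouse pancreatic tumor cells. They were picked by symbol from the 24493 genes of the expression table, and all 10 were found. The heading was carrier proteins of endodermal organs and gastrointestinal surface genes, but Cyp3a13, an enzyme, and Prlh, a peptide known from the brain, are neither. The 2 GAFCP libraries came from tumors given gemcitabine, abraxane, a CD40 agonist and antibodies that block PD-1 and CTLA-4 together. The 4 control libraries came from tumors that received none of these. Both groups used 1 tumor line, 6419c5, implanted under the skin of C57BL/6 mice, so the tumors did not grow in the pancreas. The gate used for sorting, the route and timing of the agents, and whether the libraries of a group come from separate animals are all unstated in the labels. The p-values given here cover no more than library-to-library spread, and that spread may be purely technical.

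Transthyretin (Ttr) carries thyroxine in plasma and holds the retinol carrier Rbp4 in a larger complex that the kidney does not filter. Gc, the vitamin D-binding protein, also binds free actin. Apob is the structural protein of the lipoproteins that liver and intestine secrete, and Apoa1 is the main protein of high-density lipoprotein. Lgals4 is a galectin of gut epithelium, Tspan8 a membrane tetraspanin of digestive epithelia, Anxa10 an annexin of gastric epithelium and Cyp3a13 a drug-oxidizing cytochrome P450. Prlh encodes a small amidated peptide known from the brain. Hepatocytes and enterocytes share many regulators of such genes, among them the HNF1, HNF4, FOXA and GATA families, while CDX factors are intestinal.

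Sequence upstream of the start site was searched in RefSeq's promoter table (GRCm38.p6), where 9 of the 10 genes had an entry. Ttr had none. Each window covers the 250 bases before an annotated start, and both strands were searched. The HNF1 half-site was taken as GTTAAT. For the HNF4 core the letters searched were CAAAGTC and, as the other form, CAAAGGT. For the FOXA core they were TGTTTAC and, as the other form, TATTTAC. For the GATA core they were AGATAA and, as the other form, TGATAA. The CDX core was taken as CATAAA. The TATA box was taken as TATAAA. The CDX and TATA letters share all but their first base. Over all 32851 windows, 6.43% held the HNF1 letters, 7.24% the HNF4 letters, 5.76% the FOXA letters, 16.6% the GATA letters, 10.8% the CDX letters and 12.4% the TATA letters. The windows of 4 genes are shown 5′ to 3′ in the direction of transcription, 3 of genes that were lower with GAFCP and that of Apob, which was higher, with matches in capitals. They lie at chr5:89457899-89458148 (minus strand) for Gc, chr8:62123194-62123443 (minus strand) for Anxa10, chr5:137921620-137921869 (minus strand) for Cyp3a13 and chr12:7977427-7977676 (plus strand) for Apob. GENCODE places the start of Apob slightly further upstream and that of Anxa10 slightly further downstream.
Gc: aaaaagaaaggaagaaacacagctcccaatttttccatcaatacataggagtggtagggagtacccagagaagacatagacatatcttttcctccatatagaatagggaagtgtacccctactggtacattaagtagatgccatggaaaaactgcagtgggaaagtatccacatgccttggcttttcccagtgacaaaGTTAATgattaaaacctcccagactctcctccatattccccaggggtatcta
Anxa10: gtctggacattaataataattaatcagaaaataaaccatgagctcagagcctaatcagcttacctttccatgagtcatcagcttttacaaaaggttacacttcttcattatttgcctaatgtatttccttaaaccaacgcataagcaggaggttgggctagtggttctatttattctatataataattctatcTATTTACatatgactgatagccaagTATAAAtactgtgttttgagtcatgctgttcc
Cyp3a13: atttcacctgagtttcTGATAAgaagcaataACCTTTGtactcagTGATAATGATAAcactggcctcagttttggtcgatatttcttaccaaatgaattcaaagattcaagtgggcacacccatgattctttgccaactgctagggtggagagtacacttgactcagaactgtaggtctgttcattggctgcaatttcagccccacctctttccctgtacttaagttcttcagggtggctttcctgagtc
Apob: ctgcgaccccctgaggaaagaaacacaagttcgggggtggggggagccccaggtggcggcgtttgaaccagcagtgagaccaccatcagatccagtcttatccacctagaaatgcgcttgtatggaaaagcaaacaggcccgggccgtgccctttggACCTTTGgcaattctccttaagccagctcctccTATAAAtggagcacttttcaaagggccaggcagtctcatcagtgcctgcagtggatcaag

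The capitals in Gc mark an HNF1 half-site at -52 to -47, counted back from the start. In Anxa10 they mark FOXA letters at -57 to -51 and a TATA box at -32 to -27. Cyp3a13 holds 3 GATA matches, at -234 to -229, -205 to -200 and -199 to -194, and an HNF4 match on the opposite strand at -219 to -213. Apob holds an HNF4 match on the opposite strand at -93 to -87 and a TATA box at -60 to -55. Of the windows not shown, those of Rbp4 and Tspan8 held FOXA letters, a second Rbp4 window held a TATA box and that of Prlh held GATA letters. Those of Apoa1 and Lgals4 held none of the letters searched, and the CDX letters were in no window of these genes. A match here is a description of letters and not of a bound site.

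Library labels were first checked against marker genes, in TPM, which corrects for transcript length and gives each library an equal total. Krt19, a ductal keratin, had 1031 and 1010 TPM in the GAFCP libraries and 1581 to 1661 TPM in the control libraries. Epcam, an epithelial adhesion molecule, had 1.68 and 1.39 TPM with GAFCP, against 12.5 to 13.1 TPM in controls. The summed level of 10 epithelial tumor cell markers with GAFCP was 74.3% of the control mean, and 7 of the 10 were called lower and 1 higher. Macrophage markers summed to 3364 to 3379 TPM with GAFCP and to 1033 to 1083 TPM in controls, with 15 of 15 called higher. The T and NK cell markers summed to 45.8 to 49.7 TPM with GAFCP and to 8.08 to 10.4 TPM in controls, with 11 of 11 tested called higher. Of these, Cd3e, Cd3g, Cd4, Cd8b1 and Cd5 were under 1 TPM in every control library and entered the fit by their GAFCP levels alone. The pan-leukocyte markers summed to 308 to 323 TPM with GAFCP and 111 to 130 TPM in controls, with 10 of 10 called higher. Their leading marker Ptprc had 10.1 and 9.45 TPM with GAFCP, against 2.17 to 3.06 TPM in controls. Fibroblast and pericyte markers summed to 379 to 381 TPM with GAFCP and 231 to 254 TPM in controls, with 9 of 13 called higher and 2 lower. Control libraries 1 and 2 stood apart from the other 4 in the hepatocyte list, whose sums are given with Apoa1, and results are therefore also given against each pair of controls. The endothelial list, with 2 called higher and 2 lower of 5, overlapped between groups, as did the adipocyte list, with 2 higher and 1 lower of 6. Adipocyte markers summed to 68.7 and 69.7 TPM with GAFCP and to 98.6, 77.1, 55.9 and 57.0 TPM in control libraries 1 to 4, so control libraries 1 and 2 were the highest of the 6 there too. The erythroid list, with 0 called of 3, and the islet list, with 0 called of 1, overlapped as well. Adipoq had 0.223 and 0.308 TPM with GAFCP and 0.0624 to 1.86 TPM in controls, and the islet hormones Ins1 and Ins2 were listed at 0 in all 6 libraries. Pancreatic acinar markers summed to 7.71 to 8.37 TPM with GAFCP and 11.4 to 14.6 TPM in controls, with 1 of 1 tested called lower and Cpa1 listed at 0 throughout. Most of each sum was that tested gene, Cela1, which averaged 6.64 TPM with GAFCP and 11.8 TPM in controls. Of the untested acinar markers, Cel, Ctrb1 and Rbpjl averaged higher with GAFCP, and Prss2 and Pnlip lower. The part of these shifts in cell markers in the differences described here was not tested, and in such bulk libraries fewer cells of a type and less RNA per cell cannot be told apart.

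The 10 genes were chosen with the difference between these groups in view, so their values are a description and no test of them is given. All 10 had at least 1 TPM in at least 2 libraries, which admitted 13720 genes to the fit, and Ttr, Apoa1 and Prlh passed through the control libraries alone. With GAFCP 8 were called lower and 1, Apob, higher, at an adjusted p under 0.05, while Apoa1 was not called. Among all genes tested, 28.5% were called lower, 19.0% higher and 47.5% either way. After median-of-ratios scaling the split over all genes was 3449 higher and 3425 lower, in place of 2606 higher and 3909 lower. The number called lower was 2486 without GAFCP library 1 and 2599 without GAFCP library 2. For each of the 10, the 2 groups did not overlap, as for 61.6% of genes tested. These counts follow from how the genes were picked and nothing is read from them.

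Ttr (chr18:20665280-20674321, mm10, plus strand) had 0.753 and 0.311 TPM in the GAFCP libraries, against 37.2, 40, 30.6 and 31.5 TPM in control libraries 1 to 4. The GAFCP mean was 1.53% of the control mean. On the log2(TPM + 1) scale the difference was -4.55 ± 0.15 (SE), the lowest of the 13720 genes tested. That place depended on the 1 TPM added. With 0.1 added Prlh stood lower than Ttr, and with 5 added Gc did, at -2.92 against -2.84. Ttr was under 1 TPM in both GAFCP libraries and far higher in all 4 control libraries.

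Its partner Rbp4 (chr19:38116629-38125281, minus strand), the plasma carrier of retinol, had 271 and 257 TPM with GAFCP and 349.9, 385, 353 and 357 TPM in controls. That is 73.1% of the control mean, or -0.45 ± 0.05 on the log2 scale. Rbp4 transcripts thus remained abundant in the libraries where Ttr was almost unseen. Gc (chr5:89417522-89457898, minus strand) had 7.63 and 9.18 TPM with GAFCP, against 97.9, 105, 91.5 and 91.4 TPM in controls. Its log2 difference was -3.38 ± 0.08, and the GAFCP mean was 8.70% of the control mean. Every control library held at least 91.4 TPM of Gc, and the 4 differed little.

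The 2 lipoprotein genes differed in direction. Apob (chr12:7977648-8016835, plus strand) had 39.1 and 39.8 TPM with GAFCP and 24.5, 24.2, 19.1 and 22.6 TPM in controls. It was the one gene of the 10 that was higher with GAFCP, 1.75-fold by the means, with a log2 difference of 0.78 ± 0.10. Apoa1 (chr9:46228580-46230466, plus strand) had 0.697 and 0.413 TPM with GAFCP and 23.0, 34.4, 2.43 and 2.0 TPM in controls. Its difference of -2.64 ± 1.01 had the widest error of the 9 genes given one, and the control libraries themselves split into a high and a low pair.

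Among the gut surface genes, Lgals4 (chr7:28833854-28841708, plus strand) had 43.0 and 42.9 TPM with GAFCP, against 288, 299, 296 and 292 TPM in controls. The GAFCP mean was 14.6% of the control mean and the log2 difference -2.75 ± 0.03. Replicates of each group were nearly equal, with a control coefficient of variation of 1.57%. Reads of the closely related Lgals6 could be shared with Lgals4, and how the authors' estimate divided them is not known. Tspan8 (chr10:115816832-115849893, plus strand) had 306 and 308 TPM with GAFCP, against 489, 502, 489 and 484 TPM in controls, a log2 difference of -0.68 ± 0.03. Anxa10 (chr8:62057042-62123150, minus strand) had 55.9 and 53.5 TPM with GAFCP and 64.9, 69.9, 65.1 and 72.1 TPM in controls, a log2 difference of -0.31 ± 0.06. These 2 were lower by much less than Lgals4, at 62.5% and 80.5% of their control means.

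Cyp3a13 (chr5:137892932-137921619, minus strand) had 6.02 and 5.36 TPM with GAFCP, against 13.6, 14.0, 12 and 12.1 TPM in controls, a log2 difference of -1.06 ± 0.09. The GAFCP mean was 44.0% of the control mean. Prlh (chr1:90953108-90954027, plus strand) was listed at 0 in GAFCP libraries 1 and 2 and had 10.3, 22.5, 24.8 and 8.68 TPM in controls. No fold is given against a group listed at 0. Its control libraries spread widely, with a coefficient of variation of 49.9%, and libraries 1 and 4 were the lower.

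**Figure D1:**
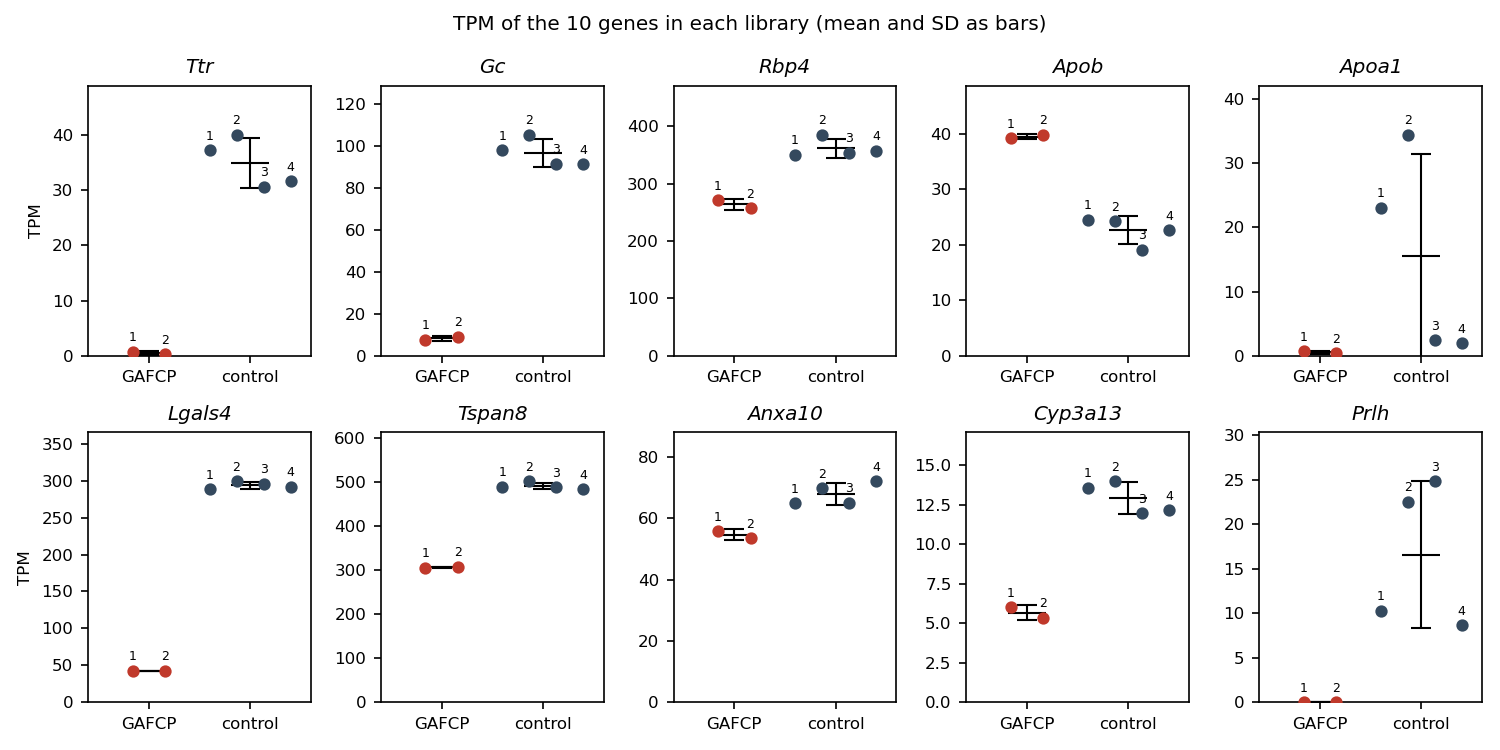
TPM (y axis, linear from 0) of each of the 10 genes in the 2 GAFCP libraries (red, left) and the 4 control libraries (dark blue, right), numbered as in the labels, with bars for the mean and SD, cut at 0 for Apoa1. Apob is the one gene with both GAFCP points above the controls, and Apoa1 and Prlh have the most scattered controls.

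The order of the 10 genes by level changed between the groups. TPM is a level per length, so genes can be ordered by it. With GAFCP the order was Tspan8, Rbp4, Anxa10, Lgals4, Apob, Gc, Cyp3a13, then Apoa1 and Ttr, whose libraries overlapped, and Prlh at 0. In controls it was Tspan8, Rbp4, Lgals4, Gc, Anxa10, Ttr, Apob, Prlh, Apoa1 and Cyp3a13. Each gene down to Apob lay apart from the next higher one. Prlh and Apoa1 overlapped with each other and with Apob and Cyp3a13, while Apob lay above Cyp3a13 in every control library. Apoa1, at 34.4 TPM in control library 2, also overlapped with Ttr, though Ttr was above it in every control library. Control means ran between 491 TPM for Tspan8, at place 253 of all genes in the table, and 12.9 TPM for Cyp3a13, at place 7601.

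The controls were also taken in pairs, libraries 1 and 2 or libraries 3 and 4 alone. The log2 difference of Apoa1 was -4.24 ± 0.22 against control libraries 1 and 2 and -1.05 ± 0.14 against libraries 3 and 4. Ttr stood at -4.71 ± 0.16 against libraries 1 and 2 and -4.40 ± 0.16 against libraries 3 and 4. Gc gave -3.45 and -3.30 in the same order, and Lgals4 -2.75 and -2.74. Apob gave 0.67 and 0.89, so that its difference was the larger against libraries 3 and 4. Apoa1 was called lower with either pair of controls, though not with all 4 together, and the other 9 genes had the same direction and call as with all 4. The genes were picked by this same difference, so these calls are no test of them and show nothing of stability.

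**Figure D2:**
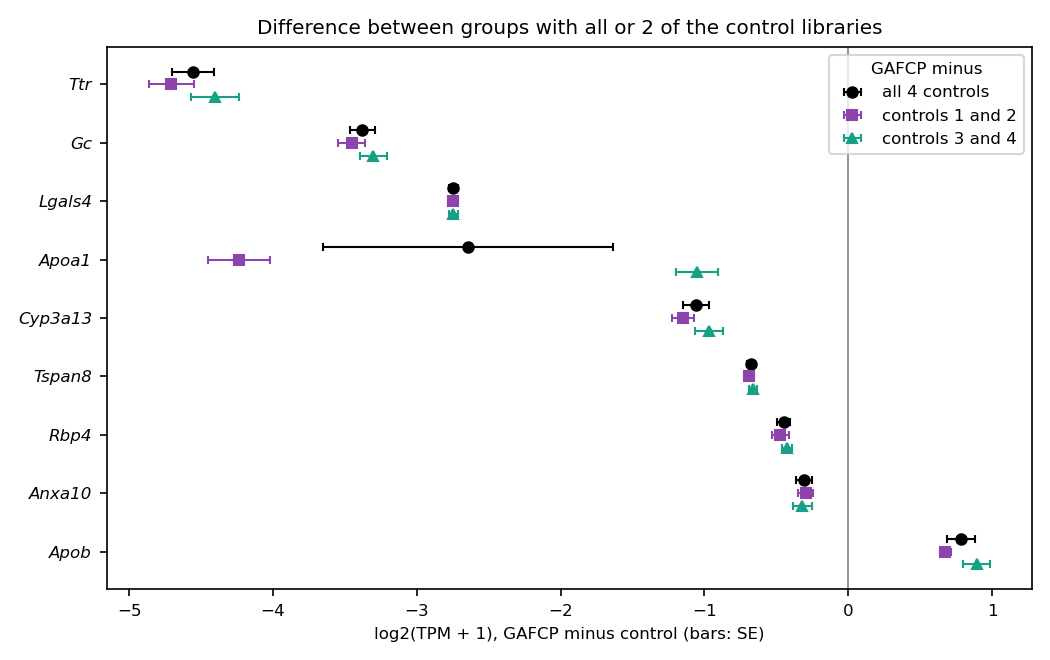
Difference in log2(TPM + 1), GAFCP minus control (x axis), for 9 genes against all 4 control libraries (black circles), libraries 1 and 2 (purple squares) or libraries 3 and 4 (green triangles), with SE as bars. Prlh, listed at 0 with GAFCP, is left out, and Apoa1 is the gene whose value depends most on the control pair, with -4.24 and -1.05.

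Apoa1 varied with transcripts of hepatocytes. Alb, the main hepatocyte plasma protein, stood at 0 with GAFCP and had 29.9, 43.7, 0.228 and 0.235 TPM in control libraries 1 to 4. Apoa2, the second protein of high-density lipoprotein, had 2.33 and 1.99 TPM with GAFCP, against 51.7, 61.2, 3.41 and 3.78 TPM in controls. The apolipoprotein Apoc3 was listed at 0 with GAFCP and had 12 and 17.3 TPM in control libraries 1 and 2 and 0 in libraries 3 and 4. All 3 were high in the same 2 control libraries as Apoa1. So were the small-intestine genes Defa24 and Fabp6, whose values are given at the end. The hepatocyte markers, a list without these 10 genes, summed to 4.19 to 4.21 TPM with GAFCP and to 112, 148, 7.03 and 7.48 TPM in controls. Of its 11 genes, 5 were listed at 0 in both GAFCP libraries, and of the 8 tested 0 were called in either direction. The part of these transcripts in the Apoa1 difference was not tested.

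Ttr and Gc were also higher in both of control libraries 1 and 2 than in both of libraries 3 and 4, but by less. That order held for 6 of the 10 genes, and for 32.9% of all genes tested. In control libraries 3 and 4, where Alb was under 1 TPM, Ttr had 30.6 and 31.5 TPM and Gc 91.5 and 91.4 TPM. Ambp, a plasma precursor cleaved into a lipocalin and a protease inhibitor, averaged 6.96 ± 0.40 TPM with GAFCP and 51.8 ± 3.27 TPM in controls (SD, n = 2 and 4). It fell by 2.73 ± 0.07 on the log2 scale (adjusted p = 7.4e-08), and control libraries 3 and 4 held 48.7 and 49.3 TPM. Itih2, a heavy chain of a plasma protease inhibitor, averaged 2.94 TPM with GAFCP and 12.9 TPM in controls, with a log2 change of -1.83 ± 0.11 (adjusted p = 9.5e-06). Ambp and Itih2, like Ttr and Gc, were above 1 TPM in all 4 control libraries, and Alb and Apoc3 in 2 of them. The part of hepatocyte transcripts in the differences of Ttr, Gc, Ambp and Itih2 was not tested.

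**Figure D3:**
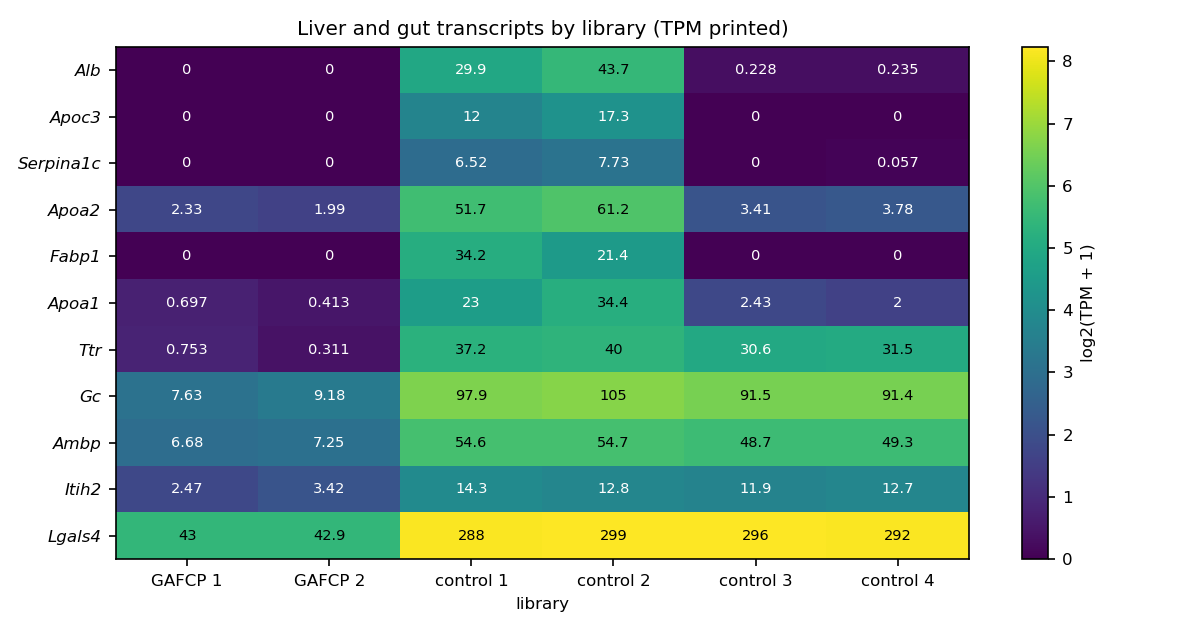
Level of 11 liver and gut transcripts (rows) in the 2 GAFCP and 4 control libraries (columns), with TPM printed in each cell, a printed 0 meaning listed at 0, and log2(TPM + 1) as color. The upper 6 rows, Alb to Apoa1, are high in control libraries 1 and 2 alone, and the lower 5, Ttr to Lgals4, are high in all 4 controls.

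Related genes were tested in 10 lists built around the roles of the 10 genes, which they leave out. Of 303 listed genes that the table holds, 200 were tested, with 34 higher (17%), 92 lower (46%) and 74 not called, and a median log2 difference of -0.35 against -0.07 over all genes tested. Against control libraries 3 and 4 alone, 34 were higher and 85 lower. Against libraries 1 and 2 alone, 31 were higher and 115 lower. Of the 200, 34 had passed the filter through the control libraries alone, and such genes entered by their control levels. Of these, 15 were in the plasma carrier list and 7 in the gut surface list. The apolipoprotein list held 4, the retinoid, galectin and tetraspanin lists 2 each, and the P450 and transcription factor lists 1 each. At least Cck and Cyp26b1, both called higher, passed through the GAFCP libraries alone.

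Among plasma carriers and other secreted liver proteins, 5 of 25 tested fell, 3 rose and 17 were not called, with a median of -0.84. The shares of 20% lower and 12% higher stand against 28.5% and 19.0% of all genes tested, and 15 of the 25 had passed the filter through the control libraries alone. Besides Ambp and Itih2, Cp, the copper-carrying ceruloplasmin, fell to 222 TPM with GAFCP, against 308 TPM in controls, a log2 change of -0.47 (adjusted p = 2.1e-04). Serpind1, a thrombin inhibitor, rose to 11.7 TPM with GAFCP, against 3.59 TPM in controls (adjusted p = 8.8e-05). Hpx, the heme carrier hemopexin, rose to 16.8 TPM with GAFCP, against 6.30 TPM in controls (adjusted p = 0.0014). This list depended on the control libraries: 21 were lower against libraries 1 and 2 alone, but 6 against libraries 3 and 4, where the median was -0.11. In 23 of the 25, both of control libraries 1 and 2 were above both of libraries 3 and 4, against 32.9% of all genes tested.

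Around Apob and Apoa1, 8 of 38 apolipoprotein and lipoprotein genes rose and 11 fell, with 19 not called. The shares, 21.1% higher and 28.9% lower, are close to the 19.0% and 28.5% of all genes tested. Apoe, a ligand for lipoprotein uptake, rose to 2780 TPM with GAFCP, against 557 TPM in controls, a log2 change of 2.32 ± 0.04 (adjusted p = 2.5e-08). The phospholipid transfer protein Pltp rose to 167 TPM with GAFCP, against 26.8 TPM in controls (adjusted p = 9.0e-08), and the cholesterol exporter Abca1 to 10.9 TPM, against 3.32 TPM (adjusted p = 1.4e-05). Macrophages also express these 3, and their marker sums given above were higher with GAFCP. Angptl4, an inhibitor of lipoprotein lipase, rose to 462 TPM with GAFCP, against 124 TPM in controls (adjusted p = 2.2e-08).

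Some genes of this list act on Apob or on its particles. Mttp, which loads lipid onto Apob, fell to 2.58 TPM with GAFCP, against 3.86 TPM in controls, a log2 change of -0.44 ± 0.12 (adjusted p = 0.018). Mttp was called neither without GAFCP library 1 (adjusted p = 0.053) nor without GAFCP library 2 (adjusted p = 0.13), nor against control libraries 3 and 4 alone (adjusted p = 0.075). Apobec1, which edits Apob messenger RNA, rose to 12.6 TPM with GAFCP, against 6.97 TPM in controls, a log2 change of 0.78 ± 0.12 (adjusted p = 0.0012). The triglyceride-forming enzyme Dgat2 fell to 6.34 TPM, against 16.1 TPM in controls (adjusted p = 4.4e-06). Clu, an abundant secreted chaperone also named apolipoprotein J, fell to 6911 TPM with GAFCP, against 8400 TPM in controls, a log2 change of -0.28 (adjusted p = 1.6e-04). With median-of-ratios scaling 13 of the list were higher, and with control libraries 1 and 2 alone 17 were lower.

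Of the genes that handle retinoids, thyroid hormone and vitamin D, the cargoes of Rbp4, Ttr and Gc, 7 of 24 rose (29.2%), 9 fell (37.5%) and 8 were not called, against 19.0% higher and 28.5% lower of all genes tested. Stra6, the membrane receptor for Rbp4, fell to 16 TPM with GAFCP, against 38.5 TPM in controls, a log2 change of -1.22 ± 0.05 (adjusted p = 7.4e-07). The intracellular retinol carrier Rbp2 fell to 16.1 TPM with GAFCP, against 45.5 TPM in controls (adjusted p = 2.5e-06). Of the enzymes that oxidize retinol to retinoic acid, Rdh10 rose to 272 TPM with GAFCP, against 200.3 TPM in controls, and Aldh1a3 to 239 TPM, against 106 TPM (adjusted p = 1.2e-04 and 2.2e-06). Aldh1a1, of the same enzyme family, fell to 3.71 TPM with GAFCP, against 11.2 TPM in controls (adjusted p = 2.6e-04). Cubn, a receptor that takes up Gc in the kidney, had 0.513 and 0.588 TPM with GAFCP and 0.821 to 1.12 TPM in controls and was not called (adjusted p = 0.075). The number of the list that rose was 4 without GAFCP library 1 and 3 without GAFCP library 2.

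Genes of the gut epithelial surface and lumen were mostly lower, with 20 of 24 tested called lower, 1 higher and 3 not called, and a median of -0.91. The 83.3% called lower stands against 28.5% of all genes tested. Of the 24, 7 had passed the filter through the control libraries alone, and 19 were lower against control libraries 3 and 4. Dmbt1, a secreted mucosal glycoprotein, fell to 12.7 ± 0.37 TPM with GAFCP, against 116 ± 7.28 TPM in controls (SD, n = 2 and 4), a log2 change of -3.10 ± 0.06 (adjusted p = 3.5e-08). Vil1, the actin-bundling villin of microvilli, fell to 2.11 TPM with GAFCP, against 14.9 TPM in controls (adjusted p = 6.0e-07). The gastric protease Ctse fell to 127 TPM with GAFCP, against 353 TPM in controls (adjusted p = 4.7e-08). The intestinal cadherin Cdh17 fell less, to 99.6 TPM with GAFCP, against 146 TPM in controls (adjusted p = 4.2e-05). Anpep, a peptidase of the brush border, was the one gene that rose, to 7.47 TPM with GAFCP, against 5.09 TPM in controls (adjusted p = 0.011), and was called neither without GAFCP library 1 (adjusted p = 0.076) nor without GAFCP library 2 (adjusted p = 0.064). The epithelial marker sum given above was also lower with GAFCP, and its part in these changes was not tested.

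The families of Lgals4, Tspan8 and Anxa10 are given beside the shares of all genes tested, 28.5% lower and 19.0% higher. Of 9 other genes tested in the galectin list, 5 fell (55.6%) and 3 rose (33.3%). The 3 include Lgals3bp, which binds a galectin and is not one. Lgals6 and Lgals7, both among the 5, had passed the filter through the control libraries alone. Lgals2, also a galectin of the gut, fell to 129.7 TPM with GAFCP, against 932 TPM in controls, a log2 change of -2.84 ± 0.03 (adjusted p = 2.8e-09). Lgals3, which macrophages also make, rose to 696 TPM with GAFCP, against 451 TPM in controls (adjusted p = 3.8e-05). Of 25 other tetraspanins, 11 fell (44%) and 5 rose (20%), with the 5 including the leukocyte tetraspanins Cd37 and Cd53, which rose with log2 changes of 1.63 and 1.17 (adjusted p = 5.0e-05 and 1.2e-05). Tspan13 had the lowest log2 difference of them, with 6.33 TPM with GAFCP and 33.2 TPM in controls, a log2 change of -2.23 ± 0.07 (adjusted p = 1.5e-07).

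Of 11 other annexins, 5 fell (45.5%) and 2 rose (18.2%), against 28.5% and 19.0% of all genes tested. Anxa13, an annexin of intestinal epithelium, fell to 129 TPM with GAFCP, against 274 TPM in controls, a log2 change of -1.08 ± 0.05 (adjusted p = 1.4e-06). Anxa4 fell to 278 TPM, against 459 TPM in controls (adjusted p = 2.6e-06), and Anxa2 rose to 1890 TPM, against 1576 TPM (adjusted p = 1.2e-04). The number that rose was 1 without GAFCP library 1 and 1 without GAFCP library 2, since Anxa5, at 0.12 on the log2 scale (adjusted p = 0.012), was then not called. The directions of Tspan31, Cd9, Anxa1, Anxa3 and Anxa5, all within 0.12 of 0 on the log2 scale, turned round under at least 1 alternative.

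Of 14 other genes of cytochrome P450 drug and xenobiotic metabolism tested, 6 fell (42.9%) and 2 rose (14.3%), against 28.5% and 19.0% of all genes tested. Cyp4b1, a P450 that oxidizes fatty acids and foreign compounds, rose to 61.5 TPM with GAFCP, against 5.48 TPM in controls, a log2 change of 3.27 ± 0.09 (adjusted p = 1.4e-07). Cyp2s1 fell to 25.1 TPM with GAFCP, against 55.2 TPM in controls (adjusted p = 3.7e-06), and the xenobiotic receptor Ahr to 7.93 TPM, against 17.4 TPM (adjusted p = 2.6e-05). No other Cyp3a gene of the table reached the filter, and the highest, Cyp3a11, was listed at 0 with GAFCP and had at most 1.28 TPM in a control library. Cyp3a genes are related in sequence, and how the authors' estimate divided any shared reads is not known.

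Amidated peptides such as the product of Prlh are cut and modified by dedicated enzymes. Pam, the amidating enzyme, fell to 52.6 TPM with GAFCP, against 101 TPM in controls, a log2 change of -0.93 ± 0.07 (adjusted p = 2.1e-05). The carboxypeptidase Cpe fell to 403 TPM with GAFCP, against 627 TPM in controls (adjusted p = 3.7e-06), while the convertase Pcsk2 had 15.7 TPM with GAFCP and 15.2 TPM in controls (adjusted p = 0.66). Cck, an amidated peptide of the gut, rose to 14.4 ± 0.54 TPM with GAFCP, against 0.418 ± 0.25 TPM in controls (SD, n = 2 and 4). Its log2 change was 3.45 ± 0.17 (adjusted p = 2.5e-06), and it entered the fit by its GAFCP levels alone. In all, 3 of the 7 tested genes of this list fell (42.9%), 1 rose (14.3%) and 3 were not called, against 28.5% and 19.0% of all genes tested. The RF-amide gene Npff, not called, averaged 15.1 TPM with GAFCP and 17.9 TPM in controls.

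Of 24 liver and gut transcription factors tested, among them members of the families named with the promoters, 17 fell, 2 rose and 5 were not called. The 70.8% that fell stands against 28.5% of all genes tested. Hnf4a fell to 49.9 TPM with GAFCP, against 86.4 TPM in controls, a log2 change of -0.78 ± 0.05 (adjusted p = 6.7e-06). The bile acid receptor Nr1h4 fell to 3.85 TPM, against 15.7 TPM in controls, a log2 change of -1.78 ± 0.08 (adjusted p = 1.1e-06). Foxa2 averaged 43.5 TPM with GAFCP and 47.4 TPM in controls and was not called (adjusted p = 0.10), except without control library 3 (adjusted p = 0.025). Cebpb, which drives acute-phase genes of the liver, rose to 185 TPM with GAFCP, against 99.96 TPM in controls (adjusted p = 9.9e-05).

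**Figure D4:**
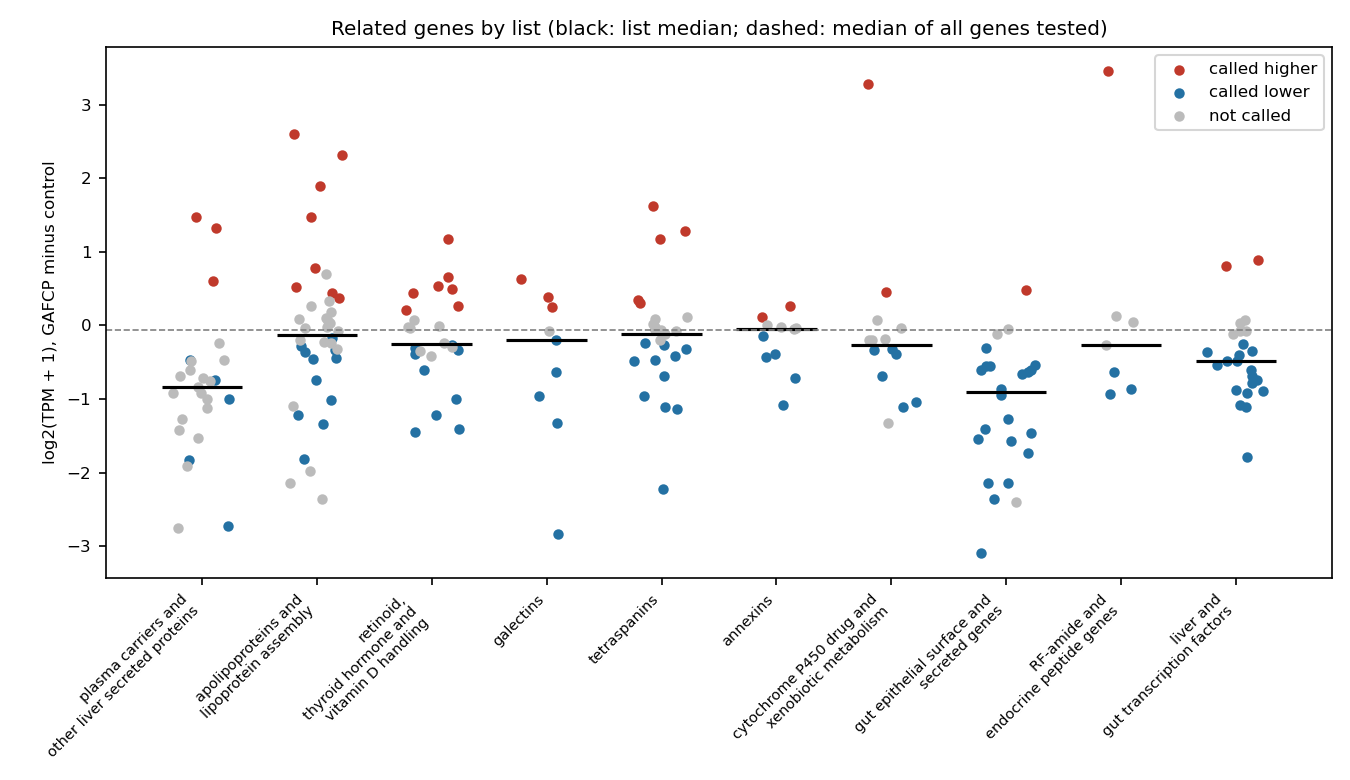
Difference in log2(TPM + 1), GAFCP minus control (y axis), of each tested gene in the 10 related lists (x axis), with genes called higher in red, called lower in blue and not called in gray, the list median as a black bar and the median of all genes tested as a dashed line. The gut surface list has 20 of 24 genes called lower and the plasma carrier list mostly uncalled genes.

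Genes beside the 10 on the chromosome were then examined, taking the 3 nearest protein-coding genes of the table on each side. Of these 60 neighbours 42 were tested, with 5 higher, 11 lower and 26 not called, and a median log2 difference of -0.03. The 38.1% called stands against 47.5% of all genes tested. Without GAFCP library 2, 7 were lower. Ttr lies between genes that were called lower on both sides, Dsg2, a desmosomal cadherin, at -0.63 ± 0.06 and the glycosyltransferase B4galt6 at -0.56 ± 0.06 (adjusted p = 1.1e-04 and 1.8e-04). Mlph, the nearest gene to Prlh, fell to 61.7 TPM with GAFCP, against 89.7 TPM in controls (adjusted p = 1.2e-04). Near Anxa10, which was lower, the interferon-induced helicase Ddx60 rose to 6.50 TPM with GAFCP, against 1.54 TPM in controls (adjusted p = 1.1e-05). Ffar4, the nearest gene to Rbp4, averaged 71.9 TPM with GAFCP and 73.0 TPM in controls and was not called (adjusted p = 0.75). Beside Apoa1, the kinase gene Sik3 averaged 12.6 TPM with GAFCP and 12.1 TPM in controls (adjusted p = 0.57). Of the apolipoprotein genes of that cluster Apoc3 was not called, and Apoa4 and Apoa5, listed at 0 with GAFCP and at most 4.73 and 1.25 TPM in controls, were not tested.

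The genes most like Ttr and Gc were sought over the 6 libraries by the root mean square difference of log2(TPM + 1), each gene centred on its own mean. Closest to Gc were the mast cell protease Mcpt4, at 0.14, Dmbt1, at 0.15, and the connexin Gjb1, at 0.23. Mcpt4 had 4.17 and 5.10 TPM with GAFCP, against 46.4, 50.5, 44.3 and 46.7 TPM in controls. Dmbt1 had 12.4 and 12.9 TPM with GAFCP, against 122, 121, 106 and 117 TPM in controls. For both, as for Gc, the 4 control libraries lay close together and far above the GAFCP libraries. Ttr had no gene as near, the closest being the secreted trefoil peptide Tff1, at 0.65, Dmbt1, at 0.70, and Mcpt4, at 0.72. Tff1 had 1.01 and 0.285 TPM with GAFCP, against 18.9, 10.9, 19.9 and 16.2 TPM in controls. The likeness rests mostly on the split between the groups, which these genes and the 2 carriers share.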

How the data were processed

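RNA of sorted tumor cells was sequenced in 6 libraries, and the authors deposited gene-level TPM for 24493 genes, made with Salmon on mm10 per the submitters' processing notes. The version of Salmon and its transcript set were not given in the sources used here. TPM keeps no sequencing depth: depth is unknown, counting intervals cannot be had, and error comes from the scatter of libraries. Titles gave the groups and the numbers of the libraries.

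A gene entered the fit if 2 or more libraries held 1 TPM or more. The values log2(TPM + 1) went into limma 3.58.1 (R 4.3.3), with moderated variances that follow a trend and 4 residual degrees of freedom. Genes were called at a Benjamini-Hochberg adjusted p under 0.05. A log2 change on this scale understates the change of low genes. The fit was checked on simulated data. Tables were handled with pandas 2.3.3 in Python 3.11.15. Gene positions and neighbours came from GENCODE's mm10 annotation, and upstream sequence from RefSeq. The alternatives were 2 other pseudocounts, 2 filters, 2 scalings, 2 forms of moderation, a replicate block, each library left out and either pair of controls.

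The 10 genes and all lists were chosen with earlier results of these data known. Genes were named as the 10 themselves, up to 6 genes of smallest p in each list and those averaging 100 TPM or more, the 3 genes most like Ttr and Gc, called neighbours or those of the same family, and Alb, Adipoq, Ptprc, Krt19 and Epcam. The text gives these in part. Apobec1, Mttp, Cubn, Anpep, Foxa2, Apoa2, Sik3, Ffar4, Ins1, Ins2, Cpa1 and the genes of the other observations were named after their values were seen.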

Additional observations from a re-analysis of the deposited data

How the results depend on the processing

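The 10 genes were chosen by their difference in these libraries, so their calls under other settings show nothing of stability. Under the 17 alternatives 9 had the same call and direction, and Apoa1 had the same direction and was called under 7 of them, including without control library 3 and without control library 4. The log2 difference of Ttr was -5.87 with a pseudocount of 0.1 and -2.84 with 5. Leaving out 1 library gave 2486 to 4638 genes called lower and 1845 to 2577 higher. It gave 78 to 96 related genes lower and 27 to 36 higher, and 7 to 10 neighbours lower and 4 to 7 higher. The neighbours called higher numbered 9 with median-of-ratios scaling and 9 with quantile normalization. Of named related genes and neighbours, 1797 of the recomputed values kept direction and call, 50 lost the call, 18 gained one and 12 reversed. Reversals were small. With median-of-ratios scaling they were Tspan31 at 0.0481, Anxa1 at 0.0337, Anxa3 at 0.0108, Por at 0.0227 and Ffar4 at 0.0403, and with quantile normalization Cd9 at -0.0508 and Anxa5 at -0.0331. Cd9 was at -0.0085 with control libraries 1 and 2 only and with the block, and leaving out 1 library put Anxa1 between -0.0634 and 0.00255 and Npff between -0.631 and 0.105, with the values above 0 without GAFCP library 1, and Ffar4 between -0.093 and 0.0469. The causes were not tested. Same-numbered libraries did not deviate together (r = -0.0073 and -0.020 across genes). Deviations of the 2 GAFCP libraries from their mean mirror each other, so these are not 2 separate checks. Whether same-numbered libraries are paired is not known. The fit with the replicate number as a block used control libraries 1 and 2 alone and called 2128 genes higher and 3766 lower, and in it 21 plasma carrier and 17 apolipoprotein genes were lower. With 2 GAFCP libraries and no depth, differences of genes listed at or near 0 are the least certain.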

Other observations

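Apoa1 was 1 of 35 genes whose lower value in control libraries 1 and 2, with 1 TPM added, was at least 5 times the higher value in control libraries 3 and 4. The criterion was chosen after the values were seen and no test is given. The 35 included 10 major urinary protein genes, 9 alpha-defensin genes, 4 apolipoprotein genes, 2 serpin A1 genes and 2 fatty acid-binding protein genes. Of them, 25 were listed at 0 in control libraries 3 and 4 and in both GAFCP libraries.

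Mup7, a pheromone carrier that mouse liver secretes, was listed at 0 with GAFCP and had 57.5 and 57.0 TPM in control libraries 1 and 2, against 0 in libraries 3 and 4. Defa24, an antimicrobial peptide of Paneth cells in the small intestine, was listed at 0 with GAFCP and had 19.3 and 16.7 TPM in control libraries 1 and 2, against 0 in the other two. Fabp6, the bile acid-binding protein of the ileum, was likewise at 0 with GAFCP and had 5.58 and 7.10 TPM in control libraries 1 and 2 and 0 in the other two. Genes of liver and of small intestine were thus high in the same 2 control libraries. The urinary protein, defensin and serpin genes have near-identical copies, and values of single genes among them are uncertain.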
